A study of Mus musculus with 2 samples.

Results

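The genes of the inflammasome and of the NOD receptors were followed across the cells of the mouse heart in a sham-operated and a pressure-overloaded library. They are Nlrp3, Nlrc4, Nod1, Nod2, Pycard, Ripk2, Casp1, Gsdmd, Il1b and Il18, which were chosen by symbol, and all 10 are among the 55357 genes of the deposited matrices. Heart cells of C57BL/6 mice were captured on the 10x Chromium platform, which tags every captured transcript with the barcode of its droplet and with a unique molecular identifier (UMI), and UMIs rather than reads were counted. The Sham library came from mice operated on without narrowing of the aorta, and the TAC library from male mice that underwent transverse aortic constriction, a model of pressure overload, at 8 weeks of age and were studied 6 weeks later. In the descriptions of these libraries age and sex are given for the TAC mice only. The paper states that its work was limited to male mice. The design text calls the controls uninjured, while the sample labels describe a sham operation. Each library pooled 3 to 5 hearts, and there was 1 library per condition, so nothing was tested between conditions. All intervals below are 95% intervals that cover counting error only, and differences describe these 2 libraries.

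Inflammasomes are protein complexes that form in the cytosol when a sensor such as NLRP3 or NLRC4 meets a danger or microbial signal. They activate caspase-1, in the case of NLRP3 through the adaptor ASC, encoded by Pycard. Caspase-1 matures interleukin-1β and interleukin-18 and cuts gasdermin D into a pore-forming fragment. NOD1 and NOD2 are cytosolic receptors of bacterial peptidoglycan fragments that signal through the kinase RIPK2 to NF-κB, a pathway that in turn drives transcription of Il1b and Nlrp3. In the heart the inflammasome has been studied in macrophages among other cells, and NOD1 and NOD2 in cardiomyocytes and vessels among others.

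Depth was similar in both libraries, with 28146691 UMIs over 9935 Sham barcodes (median 1964) and 29108986 over 9932 TAC barcodes (median 2143). The libraries had 32 barcode sequences in common. After removal of doublets 9475 Sham and 9452 TAC cells remained. Cells were named by clustering without the genes studied here, so that types are cells resembling a type by its markers, and these names were rebuilt from the data. The 5 main types were cardiomyocytes (2510 Sham and 2380 TAC cells), fibroblasts (2290 and 2127), endothelial cells (1905 and 2251), macrophages (1412 and 1322) and pericytes (1064 and 1043). The markers fitted the labelled tissue: the summed level of 9 macrophage markers was 5651 UMIs per 1000000 UMIs (CPM) in Sham macrophages and 5809 in TAC macrophages, against 27.4 to 87.6 in the other main types. The 8 cardiomyocyte markers in turn summed to 3762 CPM in Sham macrophages and 2294 in TAC macrophages, and free RNA was not subtracted from any droplet.

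The windows upstream of a gene's start, from RefSeq on GRCm38.p6, are shown for Il1b and Nlrp3, which were almost restricted to macrophages, and for Pycard, which was not. Each is 250 bases long and read on the gene's strand, 5′ to 3′, and capitals mark matches to 4 motifs searched on both strands: the PU.1 core GAGGAA, a κB-like motif of GGG and CC separated by 5 bases, the cAMP response element TGACGTCA and TATAAA. The Il1b window is chr2:129371140-129371389 on the minus strand, the Nlrp3 window chr11:59541319-59541568 on the plus strand and the Pycard window chr7:127993868-127994117 on the minus strand.
Il1b: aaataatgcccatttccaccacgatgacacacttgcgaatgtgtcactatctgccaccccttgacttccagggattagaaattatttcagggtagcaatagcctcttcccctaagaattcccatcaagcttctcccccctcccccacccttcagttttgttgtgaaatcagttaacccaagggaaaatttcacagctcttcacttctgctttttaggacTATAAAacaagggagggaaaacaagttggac
Nlrp3: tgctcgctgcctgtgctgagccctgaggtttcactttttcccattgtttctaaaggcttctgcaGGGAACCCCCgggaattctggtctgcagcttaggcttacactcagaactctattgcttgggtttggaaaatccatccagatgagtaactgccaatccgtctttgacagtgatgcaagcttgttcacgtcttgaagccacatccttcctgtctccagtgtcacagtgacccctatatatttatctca
Pycard: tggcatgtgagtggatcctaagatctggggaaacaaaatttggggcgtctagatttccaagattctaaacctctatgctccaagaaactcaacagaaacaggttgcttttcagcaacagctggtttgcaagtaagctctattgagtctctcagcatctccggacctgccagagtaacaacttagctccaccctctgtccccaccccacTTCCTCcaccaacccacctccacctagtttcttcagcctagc
The Il1b window held TATAAA at positions -31 to -26 from the start, the Nlrp3 window shown a κB-like match at -186 to -177, and the Pycard window the reverse complement of the PU.1 core at -42 to -37. Matches did not overlap in these windows. Nlrp3 had a further window in the table, for another start, which is not shown and held 3 matches to the PU.1 core. Of 32851 promoter windows of the same length, 12.4% held TATAAA, 45.8% the κB-like motif, 23.3% the PU.1 core and 1.55% the cAMP response element. Of the 10 genes, 8 had a window in the table, with 10 windows in all, and the cAMP response element was in none of them. These matches describe letters and not binding.

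**Figure D1:**
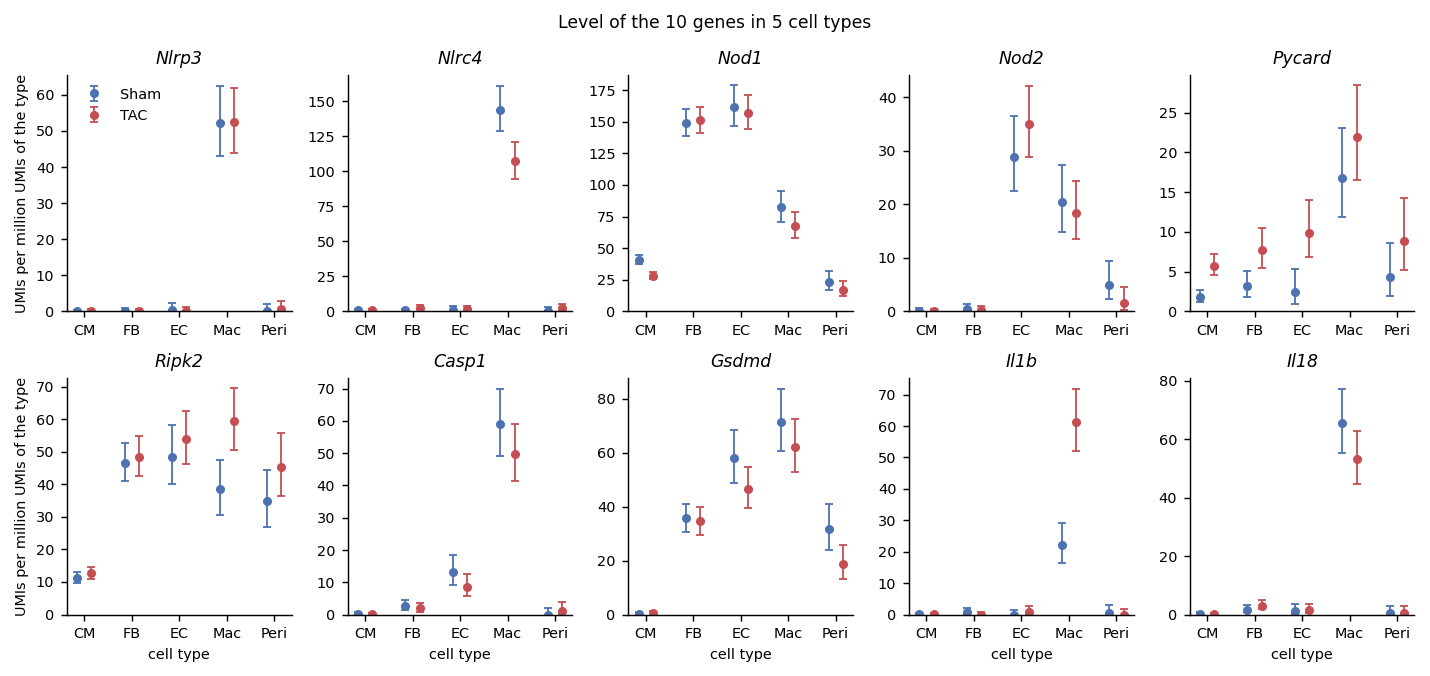
Level of each of the 10 genes in cardiomyocytes (CM), fibroblasts (FB), endothelial cells (EC), macrophages (Mac) and pericytes (Peri), in UMIs per 1000000 UMIs of the cell type (CPM), for the Sham (blue) and TAC (red) library, with exact Poisson 95% intervals. Nlrp3, Nlrc4, Il1b and Il18 stood out in macrophages, with Nlrp3 at 52.1 and 52.4, whereas Nod1 was highest in endothelial cells (162 and 157) and fibroblasts (149 and 151).

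Among the sensors, Nlrp3 was a macrophage transcript. It had 115 UMIs in 94 Sham macrophages and 134 UMIs in 103 TAC macrophages, levels of 52.1 (43.0 to 62.5) and 52.4 (43.9 to 62.0) CPM. Macrophages held 96.6% of all Nlrp3 UMIs in Sham cells and 93.7% in TAC cells. The other main types had 0 to 2 UMIs each, and the 0 among Sham cardiomyocytes allows a level of up to 0.223 CPM. The macrophage level was thus 127 times that of Sham endothelial cells (22.3 to 5042), which had 1 UMI, and 101 times that of TAC pericytes (17.8 to 4007), which also had 1 UMI. A group of 26 monocytes, which formed a separate cluster in the TAC library only, carried 6 Nlrp3 UMIs in 5 cells, 106 CPM (38.8 to 230). The 7 monocyte markers summed to 104 CPM in Sham and 71.2 in TAC macrophages. Whether the Sham macrophages include monocytes was not tested. The TAC to Sham ratio in macrophages was 1.01 (0.778 to 1.30), so the 2 libraries did not differ beyond counting error. A single TAC macrophage held 13 of the Nlrp3 UMIs.

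Nlrc4, whose protein senses bacterial flagellin and secretion systems together with NAIP proteins, was also centred on macrophages. It had 318 UMIs in Sham and 274 in TAC macrophages, 144 (129 to 161) and 107 (94.8 to 121) CPM, which were 92.7% and 87.0% of its UMIs. The ratio was 0.744 (0.631 to 0.877), lower in the TAC library. Among the smaller populations B cells alone had more than 3 Nlrc4 UMIs, with 142 CPM (46.2 to 332) in Sham and 97.6 (31.7 to 228) in TAC, from 5 UMIs in each library, and therefore of low precision. In fibroblasts Nlrc4 counted 4 UMIs in Sham and 14 in 10 TAC cells, 0.737 and 2.70 CPM, while the macrophage markers summed to 51.6 and 48.6 in the same cells. Whether free macrophage RNA accounts for these fibroblast UMIs was not tested. The symbol shares 355 bases on the same strand with a processed pseudogene, CT033749.1, which had 11 and 5 UMIs over all barcodes.

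The peptidoglycan receptors were distributed differently from these sensors and from each other. Within the main types, Nod1 was highest in endothelial cells, at 162 (147 to 179) in Sham and 157 (144 to 171) in TAC. Fibroblasts were close, at 149 (139 to 160) and 151 (141 to 162). These neighbours did not differ beyond counting error, with ratios of 1.09 (0.965 to 1.23) and 1.04 (0.927 to 1.16). Macrophages followed at 82.4 and 67.6, then cardiomyocytes at 40.7 and 28.2 and pericytes at 23.4 and 17.2, and each of these steps exceeded counting error in both libraries. Nod1 was also present in lymphatic endothelial cells, at 164 and 133, in T cells, at 141 and 196, and in epicardial or mesothelial cells, at 252 (121 to 463) and 163 (102 to 247). In cardiomyocytes Nod1 had 549 UMIs in Sham and 368 in TAC, a ratio of 0.693 (0.605 to 0.792). The ratio was 0.966 (0.845 to 1.10) in endothelial cells and 1.02 (0.919 to 1.12) in fibroblasts, and the difference between cell types was not tested.

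Nod2 was found mainly in endothelial cells and macrophages. Endothelial cells held 70 Sham and 113 TAC UMIs, 28.8 (22.4 to 36.4) and 35.0 (28.8 to 42.1) CPM, and macrophages 45 and 47 UMIs, 20.4 (14.9 to 27.3) and 18.4 (13.5 to 24.4). The step from endothelial cells to macrophages was within counting error in Sham (1.41, 0.958 to 2.10) and beyond it in TAC (1.90, 1.34 to 2.74). Pericytes had 9 and 3 UMIs, fibroblasts 2 and 1, and cardiomyocytes 2 and 1. A cardiomyocyte level of 0.148 and 0.0767 CPM contrasts with the Nod1 level in the same cells given above, so that in cardiomyocytes only 1 of the receptor pair was measurable at this depth.

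Within the endothelium Nod2 was uneven. Each library had 4 endothelial clusters, with Ablim3, Lhx6, Tmem108 and Gja5 among their respective leading genes, and the last, with Gja5 (a gap junction protein of arterial endothelium) and Sema3g, had 55 Sham and 90 TAC cells. This cluster was singled out after its values were seen. In TAC it held 22 Nod2 UMIs in 18 cells with at most 3 in a cell, 150 CPM (94.2 to 228), against 29.5 (23.8 to 36.2) in the other TAC endothelial cells, a ratio of 5.09 (3.04 to 8.18). In Sham it held 4 UMIs in 3 cells, 53.9 (14.7 to 138) against 28.0 (21.7 to 35.6), a ratio of 1.93 (0.510 to 5.17). The ratio of TAC to Sham in this cluster was 2.79, with an interval of 0.947 to 11.1 that includes 1. The Sham values depended on where the cluster ended. With doublets kept it had 120 Sham cells, with Nod2 at 22.7, 0.790 times (0.307 to 1.71) the other endothelial cells. At resolution 2 it had 290 Sham cells, with Nod2 at 25.5, a ratio of 0.865 (0.410 to 1.66). The Gja5 level of the Sham cluster was 283 CPM at first, 97.4 with doublets kept and 48.7 at resolution 2, against 417, 425 and 368 in TAC. Clusters less alike in this marker were therefore compared under these settings. The TAC Nod2 levels under them were 148 and 136, and the ratios of TAC to Sham 6.53 (2.69 to 18.1) and 5.35 (2.50 to 12.2), with intervals above 1. Under 4 other alternatives the ratio ranged from 1.96 to 2.59, with intervals that include 1. The lowest TAC value was in the cluster led by Tmem108, with Npr3 and Nrg1, at 7.62 (2.47 to 17.8) from 298 cells, where Sham had 26.2 (12.0 to 49.8).

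Neither Nod1 nor Ripk2, the partner kinase, followed this pattern. In the TAC cluster with Gja5, Nod1 was at 164 (105 to 244) against 157 (143 to 171) in the other endothelial cells, and Ripk2 at 54.7 (23.6 to 108) against 53.8 (45.9 to 62.7). The ratios were 1.05 (0.664 to 1.58) and 1.02 (0.431 to 2.05). Nod1 was instead highest in the cluster with Lhx6, at 210 (167 to 261) in Sham and 205 (171 to 244) in TAC, and lowest in the cluster led by Tmem108, at 117 and 113. This order of Nod1 was the same in both libraries for these 2 clusters.

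**Figure D2:**
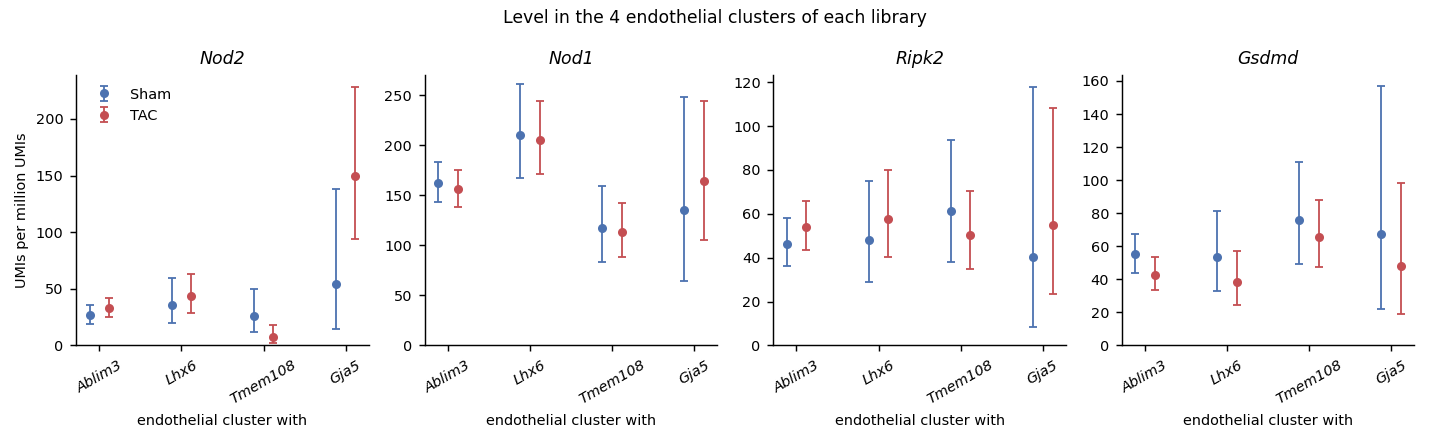
Level of Nod2, Nod1, Ripk2 and Gsdmd in CPM in the 4 endothelial clusters of each library, named on the horizontal axis by a leading gene, for Sham (blue) and TAC (red), with exact Poisson 95% intervals. Nod2 reached 150 in the TAC cluster with Gja5, while Nod1, Ripk2 and Gsdmd in that cluster lay within the range of the others.

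Of the adaptors, Ripk2 was spread over all 5 main types. Its Sham level was 48.5 in endothelial cells, 46.6 in fibroblasts, 38.5 in macrophages and 34.9 in pericytes, and no neighbours in this order differed beyond counting error. Cardiomyocytes were lower, at 11.3 (9.55 to 13.2) in Sham and 12.7 (10.8 to 14.7) in TAC, and the step down from pericytes was 3.09-fold (2.27 to 4.17) and 3.58-fold (2.73 to 4.67). In macrophages Ripk2 had 85 Sham UMIs in 76 cells and 152 TAC UMIs in 122 cells, 38.5 (30.7 to 47.6) and 59.4 (50.4 to 69.7) CPM, a ratio of 1.54 (1.18 to 2.04). The macrophages of TAC were deeper, with medians of 1648 against 1314 UMIs. When each cell was thinned to 1000 UMIs, 4.55% of Sham and 4.72% of TAC macrophages had a Ripk2 UMI in this random draw. Over 7 alternatives at the same depth the share ranged from 3.56% to 4.19% in Sham and from 4.73% to 5.54% in TAC.

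Pycard was low and broad, and its macrophage level was the highest of the main types in both libraries. It had 37 Sham and 56 TAC UMIs in macrophages, 16.8 (11.8 to 23.1) and 21.9 (16.5 to 28.4) CPM, a ratio of 1.31 (0.848 to 2.04). Outside macrophages the TAC library was higher, with 24 and 75 UMIs in cardiomyocytes, 17 and 40 in fibroblasts, 6 and 32 in endothelial cells and 8 and 17 in pericytes. The share of all Pycard UMIs that lay in macrophages was 38.9% (29.1 to 49.5) in Sham and 24.8% (19.3 to 30.9) in TAC. After thinning to 1000 UMIs, 2 of 2476 Sham and 12 of 2369 TAC cardiomyocytes kept a Pycard UMI, 0.0808% and 0.507%. These shares rest on few cells of 1 random draw, and over 7 alternatives they ranged from 0.0808% to 0.287% in Sham and from 0.252% to 0.760% in TAC. The Pycard UMIs of TAC cardiomyocytes came from 69 cells with at most 3 each, so that no single cell carried the difference. The antisense neighbour Gm45205, which overlaps Pycard by 599 bases, had 15 Sham and 13 TAC UMIs over all barcodes. The sources used here do not say whether strand was used in counting.

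Casp1, the protease, was centred on macrophages with a second, lower level in endothelial cells. Macrophages held 130 Sham and 127 TAC UMIs, 58.9 (49.2 to 69.9) and 49.7 (41.4 to 59.1) CPM. Endothelial cells held 32 and 28 UMIs, 13.2 (9.0 to 18.6) and 8.67 (5.76 to 12.5), and the step from macrophages was 4.47-fold (3.02 to 6.81) and 5.73-fold (3.78 to 8.96). Fibroblasts came next at 2.76 and 1.93, and cardiomyocytes had 4 and 2 UMIs. The TAC to Sham ratio was 0.844 (0.655 to 1.09) in macrophages and 0.658 (0.382 to 1.13) in endothelial cells.

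Gsdmd, the pore former cut by caspase-1, was present in 4 of the 5 main types and close to the limit of detection in cardiomyocytes. Its level was 71.5 and 62.2 CPM in Sham and TAC macrophages, 58.0 and 46.7 in endothelial cells, 35.6 and 34.5 in fibroblasts and 31.6 and 18.7 in pericytes. Cardiomyocytes had 4 Sham and 8 TAC UMIs, 0.297 and 0.613 CPM, although they were the deepest cells with medians of 4508 and 4922 UMIs. Pericytes exceeded them 107-fold (39.4 to 404) in Sham and 30.5-fold (14.0 to 76.0) in TAC. In pericytes the TAC level was lower, 36 UMIs against 58, a ratio of 0.592 (0.380 to 0.913), which became 0.756 (0.511 to 1.11) when doublets were kept. The 26 TAC monocytes had 10 Gsdmd UMIs in 8 cells, 176 CPM (84.4 to 324), and 6 Casp1 UMIs in 5 cells, 106 CPM (38.8 to 230). A cluster of 49 Sham cells left unnamed, with Mki67, Clec9a and Flt3 among its leading genes, had 13 Gsdmd UMIs in 11 cells, 136 CPM (72.2 to 232). Macrophages held 27.2% of the Sham and 28.4% of the TAC Gsdmd UMIs, against 69.9% and 70.6% of the Casp1 UMIs.

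The cytokines were again macrophage transcripts, and Il1b showed the largest TAC to Sham ratio of the 10 genes in these cells. Il1b had 49 UMIs in 34 Sham macrophages and 157 UMIs in 82 TAC macrophages, 22.2 (16.4 to 29.3) and 61.4 (52.2 to 71.8) CPM, a ratio of 2.77 (2.0 to 3.90). After thinning to 1000 UMIs, 1.88% (1.14 to 2.92) of Sham and 4.09% (3.00 to 5.43) of TAC macrophages had an Il1b UMI, against 2.41% and 6.20% without thinning. In cardiomyocytes the thinned shares were 0.0404% and 0 of 2369 cells, which allows a share with a UMI of up to 0.127%. That limit covers detection at 1000 UMIs and not the share of cells that hold the transcript. Macrophages held 87.5% and 96.9% of the Il1b UMIs. The signal was concentrated in few cells: 13 TAC macrophages had 3 or more Il1b UMIs, the highest with 11, and in Sham 3 did, the highest with 5. The list of 7 neutrophil markers summed to 122 CPM in Sham and 106 in TAC macrophages, with 4 and 0 of them at 0, and its part in the Il1b difference was not tested. The antisense gene Il1bos, which overlaps Il1b by 1243 bases, had 5 and 12 UMIs over all barcodes.

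Il18 was at 65.6 (55.4 to 77.2) in Sham and 53.2 (44.6 to 62.9) in TAC macrophages, a ratio of 0.810 (0.636 to 1.03), and macrophages held 85.3% and 81.9% of its UMIs. The next main type, fibroblasts, had 9 and 16 UMIs, 1.66 and 3.08 CPM. Among the smaller populations epicardial or mesothelial cells alone had more than 3 Il18 UMIs, with 126 (40.9 to 294) in 20 Sham cells and 37.1 (12.0 to 86.5) in 42 TAC cells, from 5 UMIs in each. Il18 overlaps Tex12 by 4507 bases and Bco2 by 355 bases on the opposite strand, and Bco2 had 127 and 121 UMIs over all barcodes.

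**Figure D3:**
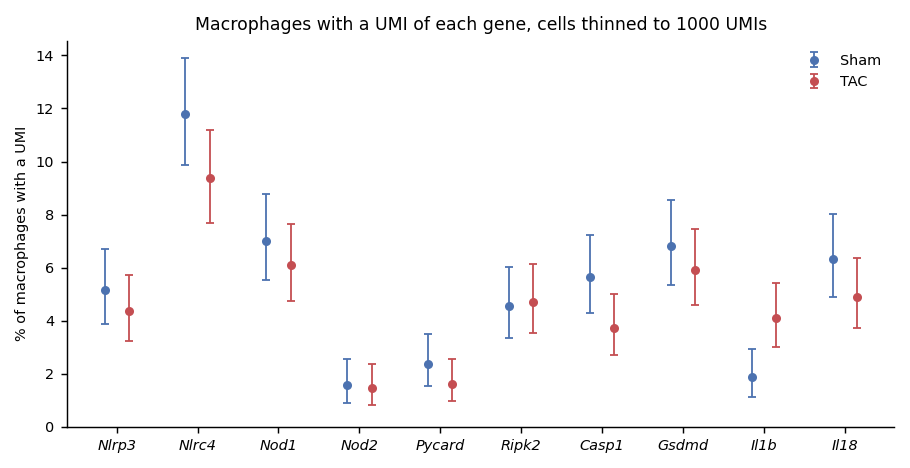
Share of macrophages with at least 1 UMI of each gene, in percent, after each cell was thinned to 1000 UMIs, in the Sham (blue, 1011 cells) and TAC (red, 1101 cells) library, with exact Clopper-Pearson 95% intervals. Il1b moved from 1.88% to 4.09%, while Nlrp3 was at 5.14% and 4.36%.

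Without thinning, 48.1% of Sham and 42.7% of TAC macrophages had no UMI of the 10 genes. At least 1 of them had a UMI in 733 of 1412 Sham macrophages (51.9%) and in 758 of 1322 TAC macrophages (57.3%). Exactly 1 gene had a UMI in 34.8% and 35.8%, exactly 2 in 13.7% and 16.2%, and 3 or more in 3.33% and 5.37%. Cells with none of the genes had medians of 1129 Sham and 1402 TAC UMIs, and cells with 3 or more 2205 and 2602. TAC macrophages were deeper, with medians of 1648 against 1314 UMIs, and the part of depth in these differences was not tested. UMIs of Nlrp3, Pycard and Casp1, the sensor, adaptor and protease of 1 complex, occurred together in 0 Sham macrophages and in 2 TAC macrophages. The 0 allows joint detection in up to 0.212% of cells at this depth, and it sets no limit on cells that hold these transcripts unseen. Of the TAC macrophages with an Il1b UMI, 8.54% (3.50 to 16.8) also had an Nlrp3 UMI, and of those without, 7.74% (6.32 to 9.37). In Sham the values were 11.8% (3.30 to 27.5) and 6.53% (5.28 to 7.97), so the 2 transcripts did not co-occur beyond counting error in either library.

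Macrophages were clustered again within each library, again without the genes studied here, into 2 Sham and 3 TAC sub-clusters. Sub-cluster 1 of Sham (547 cells, with Fgfr1, Pdgfc and Lyve1 among its leading genes) and sub-cluster 2 of TAC (406 cells, led by Ednrb and Fgfr1) were low in 4 MHC class II genes, at 342 and 196 CPM, and low in Ccr2, at 11.3 and 11.5. Sub-cluster 2 of Sham (865 cells, led by Plxdc2, Tgfbr1 and Cd74) and sub-cluster 1 of TAC (387 cells, led by Ciita, Cxcl16 and H2-Eb1) were the highest in MHC class II genes, at 1304 and 1791, and in Ccr2, at 123 and 152. Sub-cluster 3 of TAC (529 cells), whose leading genes were Tsc22d4, Ly86 and P3h2 and included the cardiomyocyte genes Myh6 and Dmd, lay between, at 862 and 36.8. The summed cardiomyocyte markers were at 3055 and 4528 CPM in Sham sub-clusters 1 and 2, and at 2699, 1681 and 2847 in TAC sub-clusters 1, 2 and 3, and their part in the differences below was not tested. Lyve1 marks resident macrophages and Ccr2 those derived from monocytes. The comparisons between sub-clusters below are descriptions.

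Il1b and Nlrp3 followed the MHC class II genes in both libraries. Il1b was at 5.23 (1.92 to 11.4) in the low and 40.5 (29.3 to 54.6) in the high Sham sub-cluster, a ratio of 7.75 (3.29 to 22.3). In TAC it was at 1.77 (0.214 to 6.38) in the low, 45.6 (32.0 to 63.2) in the middle and 187 (155 to 224) in the high sub-cluster. The high TAC sub-cluster made up 29.3% of TAC macrophages and held 75.8% of their Il1b UMIs, and its Il1b level was 4.61 times (3.23 to 6.69) that of the high Sham sub-cluster. The size of this ratio depended on the resolution of the sub-clusters. At resolution 1 the sub-cluster highest in MHC class II genes, of 250 Sham and 240 TAC cells, had Il1b at 77.4 and 239, a ratio of 3.09 (1.99 to 4.93). Sub-clusters of the 2 libraries were found separately and need not hold the same cells.

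Nlrp3 was at 34.0 (24.2 to 46.5) and 71.6 (56.4 to 89.7) in the low and high Sham sub-clusters, and at 33.6 (23.8 to 46.1), 44.4 (30.9 to 61.7) and 95.8 (73.3 to 123) in TAC. The contrast of high to low was 2.11-fold (1.41 to 3.19) in Sham and 2.85-fold (1.87 to 4.40) in TAC. The macrophage with 13 Nlrp3 UMIs belonged to the high TAC sub-cluster, which was at 75.4 without them. Between the libraries, the ratio of TAC to Sham was 0.988 (0.615 to 1.59) for the low and 1.34 (0.939 to 1.90) for the high sub-clusters. For Il1b the ratio of the low ones, from 2 and 6 UMIs, was 0.338 (0.0334 to 1.89).

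Nod1 was lower in the high TAC sub-cluster than in the other TAC sub-clusters. It was at 36.1 (22.9 to 54.2) in the high TAC sub-cluster against 78.6 (63.1 to 96.8) in the low one, a ratio of 0.459 (0.277 to 0.733). The middle TAC sub-cluster was at 77.3 (59.1 to 99.3), 0.983 times (0.698 to 1.38) the low one. In Sham the ratio of high to low was 0.907 (0.669 to 1.23). Between the libraries, the ratio of TAC to Sham was 0.912 (0.677 to 1.23) for the low and 0.462 (0.277 to 0.740) for the high sub-clusters. The high sub-clusters were unlike parts, with 61.3% of Sham and 29.3% of TAC macrophages. Nod1 was not examined in the sub-clusters of resolution 1. Nlrc4 was level across sub-clusters, with 145 and 143 in Sham and 104 to 112 in TAC. Its lower TAC value was found in the low (0.733, 0.575 to 0.933) and the high (0.723, 0.533 to 0.972) sub-clusters alike. Casp1, Gsdmd and Nod2 varied less than counting error allowed to resolve, with TAC levels of 49.4 to 50.2, 54.8 to 73.8 and 15.9 to 21.5.

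**Figure D4:**
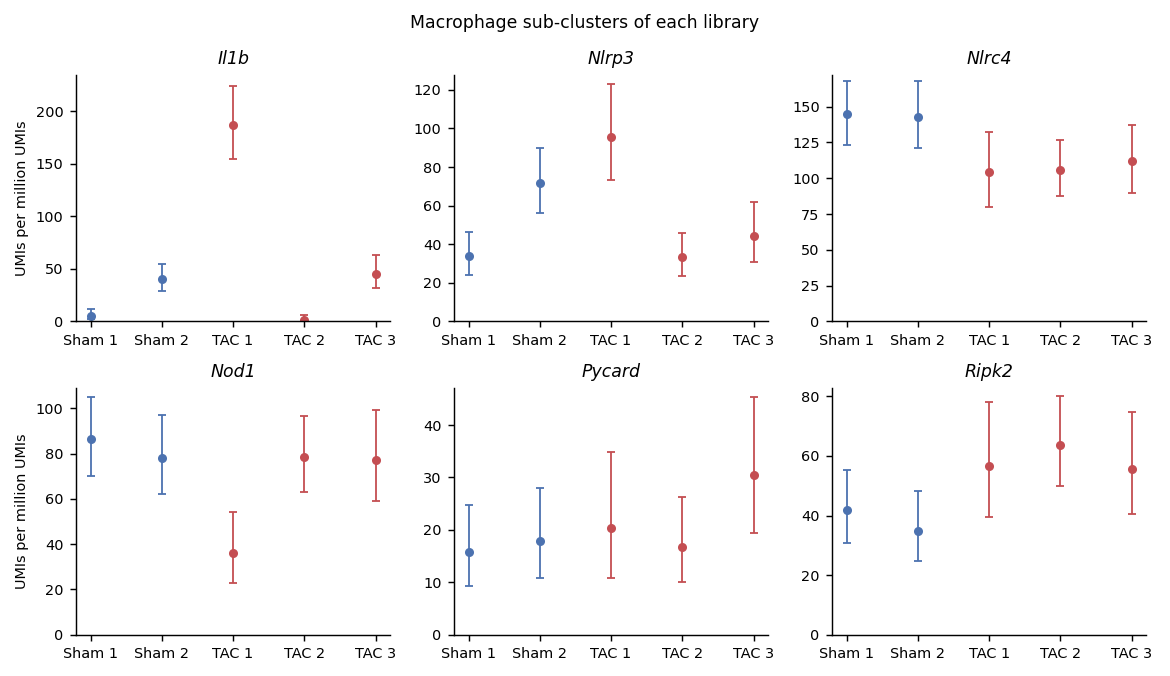
Level of Il1b, Nlrp3, Nlrc4, Nod1, Pycard and Ripk2 in CPM in the 2 Sham (blue) and 3 TAC (red) macrophage sub-clusters, with exact Poisson 95% intervals. Il1b was at 187 in TAC sub-cluster 1, which was highest in MHC class II genes, and at 1.77 in TAC sub-cluster 2.

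To read the ratios of TAC to Sham against all other genes, every gene with at least 20 UMIs over both libraries was compared in the same cell type. A ratio of at least 2 was reached by 5.22% of 12304 genes in macrophages, 7.42% of 16004 in cardiomyocytes, 6.23% of 15085 in fibroblasts, 6.28% of 13050 in endothelial cells and 4.67% of 11389 in pericytes. Of the 10 genes, all 10 were measured at that depth in macrophages and 1 reached 2, which was Il1b. In the other types Pycard reached 2 alone, as 1 of 4 measured genes in cardiomyocytes, 1 of 6 in fibroblasts, 1 of 6 in endothelial cells and 1 of 4 in pericytes. The pericyte ratio of 2.03 (0.830 to 5.43) had an interval that includes 1, and it was 1.91 with doublets kept, under the limit of 2. The filter on UMIs leaves out most inflammasome genes outside macrophages, so these counts cover the genes that passed it. None of the measured genes was at 0.5 or less, against 3.39% of all genes in macrophages, 2.26% in cardiomyocytes, 1.68% in fibroblasts, 2.05% in endothelial cells and 2.26% in pericytes. The median ratio of the measured genes was 0.885 in macrophages against 1.0 over all genes, and 1.13 against 1.03 in cardiomyocytes.

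Counting intervals that excluded 1 were common among all genes. In macrophages the interval lay above 1 for 14.5% of all genes, as it did for 2 of the 10 genes, Il1b and Ripk2, and below 1 for 14.1%, as it did for 1 gene, Nlrc4. In cardiomyocytes it lay below 1 for 18.7% of genes, Nod1 among them, and above 1 for 23.0%, Pycard among them. In fibroblasts and endothelial cells, where 17.5% and 14.9% lay above 1, Pycard did so with 2.46 (1.36 to 4.63) and 4.01 (1.66 to 11.7). In pericytes 9.68% lay below 1, Gsdmd among them. The ribosomal protein genes had a median ratio of 1.26 in macrophages, 1.16 in cardiomyocytes, 1.42 in fibroblasts, 0.926 in endothelial cells and 1.14 in pericytes. Their part in the Pycard ratios was not tested.

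**Figure D5:**
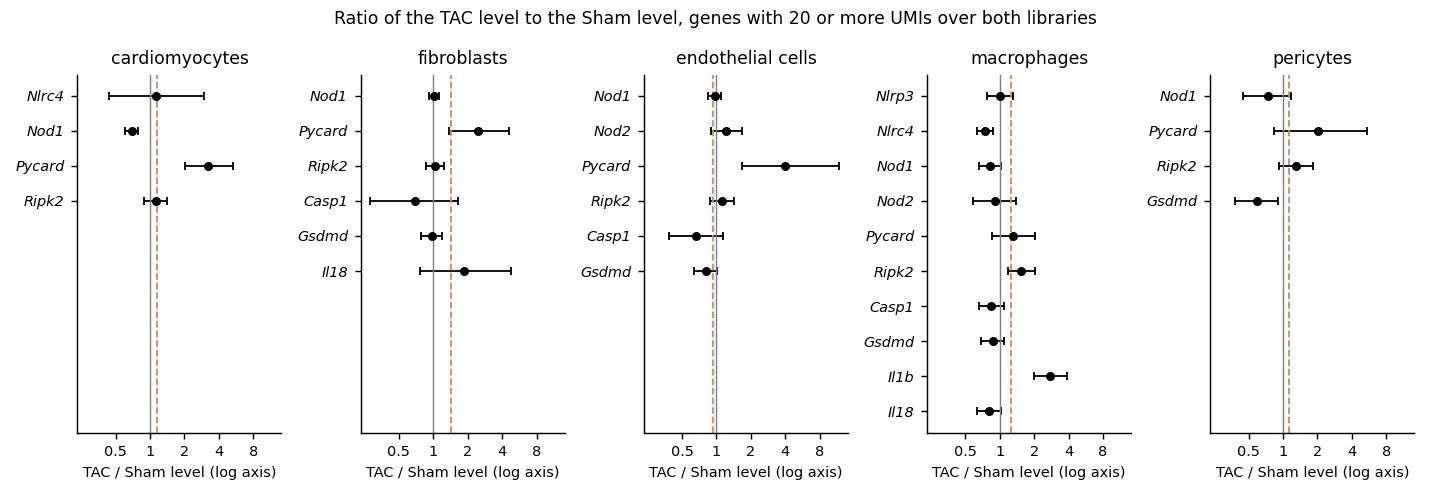
Ratio of the TAC level to the Sham level (log axis) of each gene with at least 20 UMIs over both libraries, by cell type, with exact conditional binomial 95% intervals, a grey line at 1 and a dashed line at the median ratio of the ribosomal protein genes. Pycard lay above 2 in cardiomyocytes, fibroblasts, endothelial cells and pericytes, and Il1b, at 2.77, in macrophages.

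A list of 52 further genes of the inflammasome and NOD pathways was read in the same way, and it is described by counts only. In macrophages 43 of them had at least 20 UMIs and 0 of these reached 2-fold in either direction, with a median ratio of 0.926 against 1.0 over all genes. Smaller differences were counted by the interval of the ratio, which excludes 1 more readily for genes with many UMIs. The list was chosen with earlier results of these data known, and its UMIs were not matched to those of all genes. The interval of the ratio lay below 1 for 13 of the 43, against 14.1% of all genes, and above 1 for 5, against 14.5%. The 13 lower in TAC were Naip2, Naip5 and Naip6, which encode ligand-binding partners of NLRC4, the NOD-like receptor family genes Nlrp1a, Nlrc5, Nlrx1 and Ciita, the subunits of the linear ubiquitin ligase Rbck1 and Sharpin, and Birc3, P2rx7, Txnip and Irgm1, with ratios from 0.518 for Nlrx1 to 0.840 for Txnip. The 5 higher in TAC were Gsdme, Ikbkg, Slc15a3, Atg16l1 and Xiap, with ratios from 1.21 to 1.67. The highest in macrophages, by UMIs over both libraries, were the ATP-gated channels P2rx7, at 416 and 337 CPM, and P2rx4, at 311 and 294, and the ubiquitin ligase Birc3, which acts downstream of NOD receptors, at 387 (362 to 414) in Sham and 226 (208 to 246) in TAC, a ratio of 0.585 (0.525 to 0.651). The NLRC4 partner Naip5 was at 161 (144 to 178) and 93.4 (82.0 to 106), a ratio of 0.581 (0.491 to 0.687), though Naip genes are near copies among which reads can be split.

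Outside macrophages, 2 of 34 measured genes of the list reached 2-fold up in cardiomyocytes and 2 were at 0.5 or less, 2 of 36 reached 2-fold up in fibroblasts, 2 of 37 in endothelial cells and 1 of 28 in pericytes, with none at 0.5 or less in these. The corresponding shares of all genes were 7.42% up and 2.26% down in cardiomyocytes, and 6.23%, 6.28% and 4.67% up in fibroblasts, endothelial cells and pericytes. By the interval of the ratio, 13 of the 34 genes were below 1 in cardiomyocytes, against 18.7% of all genes, and 4 above 1, against 23.0%. In fibroblasts 6 of 36 were below and 5 above, against 12.7% and 17.5% of all genes, in endothelial cells 6 and 5 of 37, against 11.1% and 14.9%, and in pericytes 5 and 2 of 28, against 9.68% and 9.55%. The genes that follow are given as single values. Gsdme, a gasdermin cut by caspase-3 rather than caspase-1, was higher in TAC in every main type. Its ratio was 2.05 (1.76 to 2.40) in cardiomyocytes, from 250 and 496 UMIs, 2.92 (1.31 to 7.34) in endothelial cells, from 8 and 31 UMIs, 2.11 (1.38 to 3.29) in pericytes, 1.86 (1.48 to 2.34) in fibroblasts and 1.67 (1.27 to 2.19) in macrophages. In cardiomyocytes, where Gsdmd was near 0, Gsdme stood at 18.5 CPM in Sham and 38.0 in TAC. Ninj1, which ruptures the plasma membrane after gasdermin pores have formed, was lower in TAC cardiomyocytes, at 7.67 against 16.5 CPM (ratio 0.466, 0.364 to 0.592), and the GTPase Irgm1 at 2.76 against 6.01 (0.459, 0.301 to 0.688).

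The remaining genes past 2-fold rested on few UMIs. The non-canonical inflammasome caspase Casp4 had 10 Sham and 25 TAC UMIs in cardiomyocytes (2.58, 1.20 to 6.03). In fibroblasts Ciita, the transactivator of MHC class II genes, had 10 and 26 UMIs (2.72, 1.27 to 6.32) and Nlrc3 19 and 38 (2.09, 1.18 to 3.84). In endothelial cells Slc15a3, a transporter of peptidoglycan fragments, had 15 and 41 UMIs (2.06, 1.11 to 4.0).

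The genes with the most similar profile over 12 points, 6 cell types in each library, were found by the cosine of their levels among 17775 genes. For Nod1 these were Ntng2 (0.983), Sqor (0.976) and Dtnb (0.976), for Nod2 Gm37082 (0.991) and Fli1 (0.987), for Gsdmd Wasf2 (0.99) and Ikbkb (0.987), and for Pycard Gm18959 (0.976) and Camk1 (0.975). Nlrp3, by contrast, shared its profile with many genes, 220 of which had a cosine of at least 0.99, as did Il18 with 182 and Nlrc4 with 145, against 19 for Casp1 and 31 for Il1b. These values describe shape over cell types in 2 libraries only.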

How the data were processed

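Single-cell RNA sequencing of mouse heart was analysed for 2 libraries, Sham and TAC, with 1 library per condition, each pooling 3 to 5 hearts. The authors deposited raw counts, that is UMIs summed by gene and droplet barcode, with no scaling. The submitters' processing notes name Cell Ranger 7.1.0, while the study's methods name an earlier version. The genome build, the use of strand and the counting of introns are not given in the sources used here. The methods give the 3-prime kit in another version than the labels, which name version 3. GENCODE M21, which holds 94.1% of the gene identifiers, gave the overlaps between genes.

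The software was scanpy 1.11.5 with igraph 0.11.9 and anndata 0.12.19 for clustering, scipy 1.17.1 for intervals, and Python 3.11.15, pandas 2.3.3, numpy 2.4.6 and matplotlib 3.10.9. Kept barcodes had 200 or more detected genes and were no doublets by Scrublet, which at an expected 0.8% per 1000 cells marked 459 Sham and 479 TAC barcodes (4.62% and 4.82%). Each library was clustered by itself with the Leiden method (resolution 1, seed 1) on 30 principal components of 2000 variable genes with 15 neighbours, after normalization to 10000 UMIs. Clustering did not use the genes described, the 52 further pathway genes or mitochondrial genes. Naming a cluster took 3 or more markers of a type, each present in 10% or more of the cluster and with a log2 fold of 1 or more against the remaining cells. A cluster of 49 Sham cells stayed unnamed, and the cluster of 26 monocytes was found in TAC only. Macrophages were clustered again at resolution 0.5.

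The level of a gene in a cell type is its UMIs per 1000000 UMIs of that type (CPM), with an exact Poisson interval. Shares of cells have exact Clopper-Pearson intervals and ratios exact conditional binomial intervals, all at 95%. For a count of 0 the limit was set at 3 counts. No test between conditions was possible with 1 library each, and no p-value is given. UMIs carry molecular identifiers, but intervals cover counting error only and not the spread between hearts. Shares were compared after 1 random draw of 1000 UMIs from each cell, which leaves out shallower cells (401 Sham and 221 TAC macrophages). Ratios were read against all genes with at least 20 UMIs over both libraries in a cell type. The ratio step was tested on simulated Poisson counts, which held no spread between hearts or cells and so cover counting error only.

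The genes and lists were chosen with earlier results of these data known. The rule named all 10 genes, the pathway genes past 2-fold with an interval that excluded 1, the 3 highest pathway genes in macrophages and the 3 most similar genes. The macrophage pathway genes with an interval off 1, Gsdme in fibroblasts, and the endothelial cluster with Gja5 were chosen after their values were seen. As alternatives served a minimum of 500 detected genes, a maximum of 25% mitochondrial UMIs, doublets kept, resolution 2, clustering of both libraries together, shared barcodes left out, mitochondrial UMIs left out of the total, the cell with the most UMIs left out, other thinning depths, a minimum of 50 UMIs and a 1.5-fold limit. Counting monocytes and the unnamed cluster as macrophages, and sub-clustering at resolution 1, were chosen after seeing the data.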

Additional observations from a re-analysis of the deposited data

Results flagged for a closer look

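Nlrc4 was flagged because its TAC to Sham ratio lay above 1 in fibroblasts and below 1 in macrophages, each with a counting interval that excluded 1. In fibroblasts the ratio was 3.66 (1.15 to 15.3), from 4 Sham and 14 TAC UMIs, and in macrophages 0.744 (0.631 to 0.877), from 318 and 274 UMIs. The difference between the cell types was not tested, and with 1 library per condition it could not be set against the spread between libraries. The 14 TAC UMIs lay in 10 of 2127 fibroblasts, at most 3 in a cell. Without doublet removal the fibroblast ratio was 3.19 (1.08 to 11.3).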

How the results depend on the processing

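No paired analysis was possible because Sham and TAC are single libraries without replicates. Over the alternatives to the filters, clustering, totals and naming, ratios of TAC to Sham in macrophages ranged from 2.73 to 2.87 for Il1b, 1.42 to 1.59 for Ripk2 and 0.724 to 0.757 for Nlrc4, and the Pycard ratio from 3.12 to 3.38 in cardiomyocytes. In all, 359 alternative ratios stayed within the interval of the reported ratio and 1, that of Il1b in the macrophage sub-cluster below, left it; 0 reversed a called direction. Of the levels, 797 stayed within their interval and 7 did not. With no doublets removed the Nlrc4 level was 124 in Sham and 93.9 in TAC macrophages. The ratio of Nod2 in the TAC cluster with Gja5 to other endothelial cells ranged from 3.42 to 5.87, and in Sham from 0.790 to 2.10, and its ratio of TAC to Sham in that cluster from 1.96 to 6.53. At resolution 1 the macrophage sub-cluster highest in MHC class II genes had Il1b at 77.4 in 250 Sham cells and 239 in 240 TAC cells, a ratio of 3.09 against the reported 4.61, and Nlrp3 at 83.2 and 113.

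Of the shares under the alternatives, other thinning depths included, 217 left the interval of the reported share while 783 stayed within it. Shares depend on depth by construction, and small ones on the random draw. The Nlrp3 share of Sham macrophages was 2.83% when thinned to 500 UMIs and 9.74% at 2000, and that of TAC macrophages 2.42%, 7.63% and, not thinned, 7.79%. The Il1b share of TAC macrophages was 6.20% when not thinned. Counts over all genes with the 1.5-fold limit or the minimum of 50 UMIs differed from the reported counts by more than 1.5 times in 20 cases. Depth limits the types outside the 5 main ones, where most of the 10 genes had 0 to 5 UMIs.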
